A study of Mus musculus with 32 samples.

Results

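Nebl, Adgb, Gpr84, Hsd11b1, Il22ra2, Arhgef40, Aoc1 and Col4a1 are 8 of the 27179 genes counted in bone marrow cells that lack Kat7. They were picked because their RNA was much higher in knockout than in control cells in these same libraries, so the knockout values of these 8 genes are given as a description, without a test. RNA was sequenced from 2 sorted cell populations of 16 adult C57BL/6 mice, 1 library of each population per mouse. The title of the series names quiescence and self-renewal of blood stem cells as its subject.

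LSK cells lack markers of mature lineages, carry Sca-1 and Kit, and include the blood stem cells. The second population is labelled progenitor cells, and the gate of neither population is described in the labels. Knockout (KO) mice were Hbo1fl/fl, with both alleles of Kat7 (also called Hbo1) deleted, and control mice were Hbo1fl/+, with 1 allele deleted per the sample titles. In the description of the treatment the controls are named wild type instead, and the titles were followed here. All mice carried a Cre recombinase and all were treated. In the Mx1Cre mice Cre was switched on with polyIC, an inducer of interferon, and in the CreER mice RosaCreERT2 was switched on with tamoxifen. Both drivers also act in cells outside the blood lineages, so marrow support cells could lose Kat7 as well. Cre line, inducing agent and set of mice differ together and cannot be told apart. The interval between treatment and sorting is not given in the sources used here. Each of the 8 groups held 4 libraries, from 3 females and 1 male in the CreER groups and from 2 of each sex in the Mx1Cre groups.

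Kat7 is the catalytic subunit of an acetyltransferase complex that places acetyl groups on lysines of histones H3 and H4, marks that are found at active genes. The 8 genes belong to no common pathway. Gpr84 encodes a receptor for medium-chain fatty acids on myeloid cells, and Il22ra2 a secreted receptor that captures interleukin-22. Hsd11b1 encodes an enzyme of the endoplasmic reticulum that makes active glucocorticoid from its inactive form, and Aoc1 encodes diamine oxidase, which breaks down histamine and putrescine. Nebl encodes nebulette, an actin-binding protein of the nebulin family best known from the Z-discs of heart muscle, and Arhgef40 a guanine nucleotide exchange factor. Col4a1 encodes a chain of collagen IV, the network-forming collagen of basement membranes. Adgb encodes androglobin, a large protein with a globin domain and a calpain-like domain that is best known from the testis.

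The shallowest library held 7275277 counts and the deepest 18409271 (median 12207444). Levels are given as CPM, the count of a gene scaled to library size with TMM. Kat7 itself reached at most 1.69 CPM in a KO library, against at least 39.3 CPM in a control library. Kit averaged 288 CPM in LSK Mx1Cre KO and 447 CPM in LSK Mx1Cre control cells, 352 CPM in LSK CreER KO and 413 CPM in LSK CreER control cells, and between 254 and 367 CPM in the progenitor groups. Ly6a, the gene of Sca-1, averaged 19.3 CPM in LSK Mx1Cre KO and 18.4 CPM in LSK Mx1Cre control cells, 79.7 CPM in LSK CreER KO and 91.7 CPM in LSK CreER control cells, and at most 5.23 CPM in a progenitor group. Of 6 markers of LSK and stem cells 4 fell in KO LSK cells (edgeR quasi-likelihood test, Benjamini-Hochberg over all genes), Kit by 0.43 ± 0.07 on the log2 scale (adjusted p = 0.000307), Mecom by 1.35 ± 0.18 (2.48e-05), Hlf by 0.85 ± 0.18 (0.00176) and Flt3 by 0.54 ± 0.14 (0.00723), beside a fall in 14.3% of all genes, and their part in the values below was not tested. The sex-linked genes of LSK CreER KO libraries 2 and 3 went against the sex in their labels. Both belong to the same group, so exchanging them would change only the fits with sex, replicate number or mouse as a term and the comparison of the 2 populations within a mouse. The slope of log2 CPM on gene length, which moves with RNA quality, was -0.084, -0.124 and -0.135 per doubling of length in LSK Mx1Cre KO libraries 1, 3 and 4 and 0.0215 in library 2, against 0.0248 to 0.058 in LSK Mx1Cre controls. It ran from 0.0327 to 0.0892 in LSK CreER KO and from -0.0575 to 0.117 in LSK CreER control libraries, from -0.295 to -0.00625 in progenitor Mx1Cre KO and from -0.354 to 0.0226 in progenitor Mx1Cre control libraries, and from 0.0531 to 0.0999 in progenitor CreER KO and from 0.00449 to 0.121 in progenitor CreER control libraries. With this trend removed, the 8 genes kept the direction of their KO differences over both Cre lines. They were chosen on these differences, so nothing is read from this.

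The upstream sequences of Nebl, Aoc1 and Adgb are shown because these are the 3 genes with a stretch of at least 249 bases before a start that lies outside annotated exons. RefSeq gave promoter windows for 7 of the 8 genes, 11 windows in all, on GRCm38.p6. Each stretch ends at or next to a start and reads 5′ to 3′ on the strand of the gene. On both strands, 4 motifs were searched: AGATAA (the GATA type motif), GAGGAA (the ETS type), TGTGGT (the RUNX type) and TATAAA (the TATA box). Capitals mark a match to one of them. The Nebl stretch is chr2:17670166-17670415 on the minus strand, the farthest upstream of 3 such stretches before inner starts of the gene. The Aoc1 stretches are chr6:48895005-48895253 and chr6:48904736-48904985 on the plus strand, and the Adgb stretch is chr10:10472400-10472649 on the minus strand.
Nebl: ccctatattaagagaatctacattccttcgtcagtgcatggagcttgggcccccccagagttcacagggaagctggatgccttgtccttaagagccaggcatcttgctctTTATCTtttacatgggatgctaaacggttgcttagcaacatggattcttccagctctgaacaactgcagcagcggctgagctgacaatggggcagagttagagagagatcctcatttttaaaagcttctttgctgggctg
Aoc1, upstream start: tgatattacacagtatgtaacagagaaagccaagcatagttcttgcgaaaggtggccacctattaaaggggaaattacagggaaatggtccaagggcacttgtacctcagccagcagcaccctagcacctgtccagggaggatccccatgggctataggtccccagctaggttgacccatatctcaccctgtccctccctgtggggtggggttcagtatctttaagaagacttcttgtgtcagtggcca
Aoc1, downstream start: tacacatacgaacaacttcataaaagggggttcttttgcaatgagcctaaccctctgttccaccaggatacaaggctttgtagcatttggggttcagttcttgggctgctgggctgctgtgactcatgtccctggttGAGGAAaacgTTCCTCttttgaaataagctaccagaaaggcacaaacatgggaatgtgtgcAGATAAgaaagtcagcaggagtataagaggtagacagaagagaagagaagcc
Adgb: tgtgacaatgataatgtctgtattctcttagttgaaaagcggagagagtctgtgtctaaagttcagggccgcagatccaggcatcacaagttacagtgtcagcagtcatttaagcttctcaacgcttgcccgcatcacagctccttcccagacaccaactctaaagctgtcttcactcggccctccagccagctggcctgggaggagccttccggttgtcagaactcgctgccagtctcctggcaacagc

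The Nebl stretch held 1 GATA type match, the stretch at the downstream start of Aoc1 held 1 GATA type and 2 ETS type matches, and the other stretches shown held none of the 4 motifs. Of the Nebl stretches not shown, chr2:17526131-17526380 held 1 GATA type match and chr2:17462857-17463106 held 1 RUNX type match. Among all 32851 promoter windows, 9.99% held the GATA type motif, 23.3% the ETS type, 14% the RUNX type and 12.4% the TATA box in the 250 bases before the start, on either strand. A match of letters is no evidence that a factor binds. Of the 11 windows of these genes, 3 had a ratio of observed to expected CpG of at least 0.6, the limit used here for CpG-rich sequence. These were the windows of Arhgef40 (0.78), Col4a1 (0.9) and the outermost start of Nebl (0.83), against a median of 0.38 over all windows, of which 35.8% reached the limit. The windows shown for Aoc1 had ratios of 0.14 and 0.25.

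**Figure D1:**
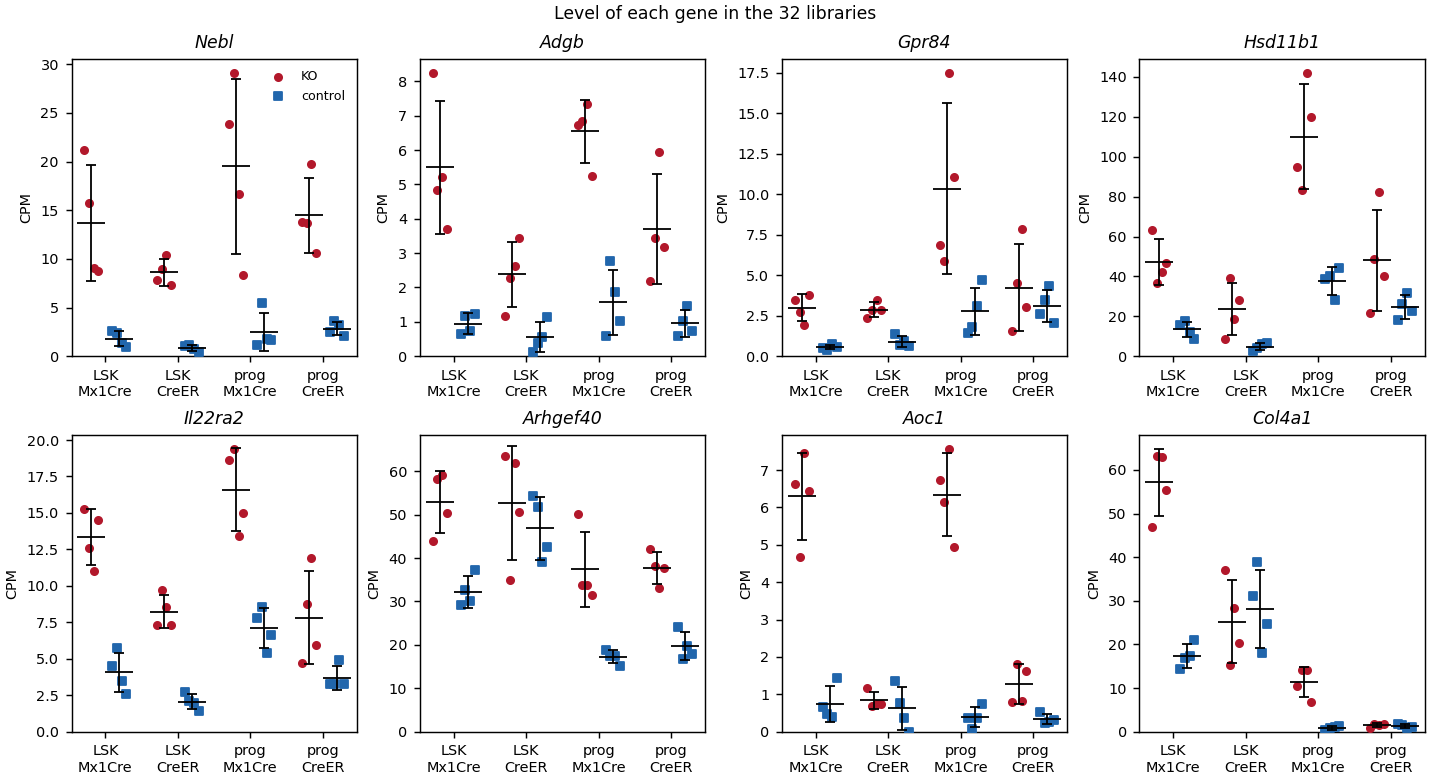
Level of each gene in CPM in each of the 32 libraries, with KO libraries as red circles and control libraries as blue squares and the mean with 1 SD in black (n = 4 per group). Nebl and Adgb libraries of KO and control cells stand apart in all 4 pairs of groups, and Col4a1 libraries stand apart in the Mx1Cre pairs and overlap in the CreER pairs.

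Nebl and Adgb were higher in KO cells in both populations and both Cre lines. Gpr84, Hsd11b1 and Il22ra2 were higher in both Cre lines of LSK cells, with CreER progenitor libraries that overlapped. Arhgef40 differed more in progenitor than in LSK cells, and Aoc1 and Col4a1 differed mainly in Mx1Cre mice. All 4 KO libraries lay above all 4 controls for all 8 genes in LSK Mx1Cre cells, for 5 in LSK CreER cells, for all 8 in progenitor Mx1Cre cells and for 4 in progenitor CreER cells. The same held for 15.4% of the 14102 genes tested in LSK Mx1Cre cells, 4.13% in LSK CreER cells, 3.64% of the 13692 genes tested in progenitor Mx1Cre cells and 4.77% in progenitor CreER cells. The genes were chosen on this contrast, so nothing is read from these counts. In bulk RNA, more cells of a type that expresses a gene and more RNA of that gene per cell cannot be told apart.

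Nebl lies at chr2:17342673-17734949 (all positions are on GRCm38.p6). It had 21.2, 15.7, 9.10 and 8.72 CPM in the 4 LSK Mx1Cre KO libraries, against 2.54, 2.42, 1.37 and 0.915 CPM in the controls. In LSK CreER cells it had 7.79, 9.0, 10.4 and 7.33 CPM in KO libraries, against 1.01, 1.15, 0.748 and 0.459 CPM in controls. Every KO library was well above every control in both Cre lines. In progenitor Mx1Cre cells Nebl had 23.9, 29.1, 16.7 and 8.39 CPM in KO libraries, against 1.19, 5.42, 1.75 and 1.69 CPM in controls. In progenitor CreER cells it had 13.8, 13.7, 19.8 and 10.6 CPM in KO libraries, against 2.47, 3.58, 3.21 and 2.11 CPM in controls. The lowest KO library of progenitor cells, Mx1Cre KO library 4, was still above the highest control. The log2 fold change, KO over control, averaged over both Cre lines was 3.14 ± 0.25 (SE) in LSK cells and 2.64 ± 0.31 in progenitor cells, which placed Nebl at rank 9 and rank 8 of all genes tested.

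Arhgef40 (chr14:51984428-52006247) had the smallest LSK difference of the 8 genes over both Cre lines. It had 44.0, 58.3, 59.2 and 50.4 CPM in LSK Mx1Cre KO libraries, against 29.1, 32.6, 30.0 and 37.2 CPM in controls. In LSK CreER cells it had 63.4, 35.0, 61.9 and 50.7 CPM in KO libraries, against 54.2, 51.8, 39.0 and 42.6 CPM in controls, and the libraries overlapped. Arhgef40 in progenitor Mx1Cre cells had 50.2, 33.9, 33.9 and 31.5 CPM in KO libraries, against 18.8, 17.5, 17.5 and 15.2 CPM in controls. The progenitor CreER libraries had 42.1, 38.2, 33.0 and 37.7 CPM with the knockout, against 24.1, 16.8, 19.8 and 17.9 CPM in controls. Both progenitor pairs stood clearly apart, with log2 fold changes of 1.10 ± 0.16 in Mx1Cre and 0.93 ± 0.16 in CreER cells. The LSK log2 fold changes were 0.71 ± 0.16 in Mx1Cre and 0.18 ± 0.16 in CreER cells. Over both Cre lines the LSK log2 fold change of 0.44 ± 0.11 held rank 853, and the progenitor log2 fold change of 1.01 ± 0.11 held rank 225. Gm16617, a lncRNA gene, and Zfp219 overlap Arhgef40, and because no strand setting is given their reads may be shared.

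Gpr84 (chr15:103308233-103310670) was scarce. It had 3.50, 2.74, 1.94 and 3.79 CPM in LSK Mx1Cre KO libraries, against 0.508, 0.391, 0.723 and 0.588 CPM in controls. In LSK CreER cells it had 2.35, 2.85, 3.44 and 2.84 CPM in KO libraries, against 1.35, 0.672, 0.935 and 0.611 CPM in controls. The LSK libraries stood apart in both Cre lines, with raw counts of 25 to 51 in Mx1Cre KO and 5 to 9 in Mx1Cre control libraries. Among progenitor Mx1Cre libraries Gpr84 had 6.87, 5.87, 17.5 and 11.1 CPM in KO libraries, against 1.42, 1.81, 3.12 and 4.69 CPM in controls. Progenitor CreER cells had 1.54, 4.51, 7.83 and 3.02 CPM with the knockout, against 2.62, 3.47, 4.33 and 2.03 CPM in controls. The CreER progenitor libraries overlapped, and KO library 1 was the lowest of the 8. Log2 fold changes were 2.40 ± 0.34 in Mx1Cre and 1.71 ± 0.33 in CreER LSK cells, and 1.90 ± 0.50 in Mx1Cre and 0.43 ± 0.49 in CreER progenitor cells. The levels of neutrophil markers are given beside these. The summed level of 8 of them ran from 2829 to 26076 CPM in progenitor Mx1Cre KO and from 1254 to 15808 CPM in progenitor Mx1Cre control libraries, and from 134 to 1231 CPM in LSK CreER KO and from 102 to 185 CPM in LSK CreER control libraries. It ran from 966 to 2384 CPM in LSK Mx1Cre KO and from 408 to 2454 CPM in LSK Mx1Cre control libraries, and from 512 to 2745 CPM in progenitor CreER KO and from 298 to 687 CPM in progenitor CreER control libraries. Of these 8 markers 4 rose in KO LSK cells at an adjusted p below 0.05 with edgeR and with DESeq2, and 2 with limma-voom, beside 13.5% of all genes with edgeR. In progenitor cells 0 of 8 passed with edgeR, DESeq2 or limma-voom, with 5, 5 and 3 at an unadjusted p below 0.05. Their part in the Gpr84 values was not tested.

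Il22ra2 lies at chr10:19622028-19634681. It had 15.3, 12.6, 11 and 14.5 CPM in LSK Mx1Cre KO libraries, against 4.50, 5.71, 3.45 and 2.61 CPM in controls. In LSK CreER cells it had 7.35, 9.74, 8.53 and 7.33 CPM in KO libraries, against 2.71, 2.11, 1.96 and 1.45 CPM in controls. Every KO library of LSK cells was above every control of its Cre line. Il22ra2 in progenitor Mx1Cre cells had 18.6, 19.4, 13.4 and 15 CPM in KO libraries, against 7.82, 8.52, 5.37 and 6.66 CPM in controls. Progenitor CreER cells had 4.69, 8.73, 11.9 and 5.96 CPM with the knockout, against 3.29, 3.24, 4.94 and 3.24 CPM in controls, and overlapped at KO library 1 and control library 3. Log2 fold changes were 1.71 ± 0.22 in Mx1Cre and 2.02 ± 0.24 in CreER LSK cells, and 1.20 ± 0.27 in Mx1Cre and 1.07 ± 0.28 in CreER progenitor cells. Dendritic cells are a known source of this secreted receptor. The 8 dendritic cell markers summed to between 10.3 and 20.8 CPM in LSK Mx1Cre KO and between 9.64 and 21.3 CPM in LSK Mx1Cre control libraries, and to between 6.69 and 14.8 CPM in LSK CreER KO and between 4.96 and 8.26 CPM in LSK CreER control libraries. In progenitor CreER cells these markers summed to between 11 and 24.8 CPM in KO and between 8.58 and 14.9 CPM in control libraries. The progenitor Mx1Cre sums ran from 7.79 to 16.7 CPM in KO and from 4.79 to 12.2 CPM in control libraries. Of 5 markers tested in LSK cells 1 rose with edgeR, Itgax, beside 13.5% of all genes. Of 4 tested in progenitor cells 0 rose, beside 2.28% of all genes. Xcr1 averaged at most 0.676 CPM in any group. Of 8 macrophage markers tested in LSK cells 2 rose and 0 fell with edgeR. These were Mrc1, by 2.33 ± 0.34 (adjusted p = 7.18e-05), and Adgre1, by 1.19 ± 0.25 (adjusted p = 0.00205). Of 4 tested in progenitor cells 1 rose, Mrc1, by 0.87 ± 0.25 (adjusted p = 0.0448). The part of dendritic cells and macrophages in the Il22ra2 values was not tested.

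Hsd11b1 (chr1:193221640-193264045) was the most abundant of the 8 genes per kb of exon in progenitor cells. In progenitor Mx1Cre cells it had 94.9, 83.2, 142 and 120 CPM in KO libraries, against 38.7, 40.3, 28 and 44.0 CPM in controls. The progenitor CreER libraries had 21.5, 48.6, 82.2 and 40.3 CPM with the knockout, against 17.9, 26.2, 31.9 and 22.5 CPM in controls. The Mx1Cre libraries stood apart, and in the CreER libraries KO library 1 lay among the controls. In LSK Mx1Cre cells Hsd11b1 had 63.4, 36.7, 42.1 and 46.8 CPM in KO libraries, against 15.5, 17.4, 12.3 and 8.62 CPM in controls. LSK CreER cells had 8.67, 39.3, 18.4 and 28.4 CPM with the knockout, against 2.71, 4.03, 6.08 and 6.42 CPM in controls. Again KO library 1 was the lowest, but above every control. Log2 fold changes were 1.80 ± 0.35 in Mx1Cre and 2.29 ± 0.38 in CreER LSK cells, and 1.53 ± 0.31 in Mx1Cre and 0.95 ± 0.31 in CreER progenitor cells. Over both Cre lines the LSK value was 2.04 ± 0.26. Without LSK CreER KO libraries 2 and 3 the LSK log2 fold changes over both Cre lines were 1.86 for Hsd11b1, 3.04 for Nebl, 2.23 for Adgb, 1.97 for Gpr84, 1.77 for Il22ra2, 0.49 for Arhgef40, 1.87 for Aoc1 and 0.86 for Col4a1.

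Aoc1 (chr6:48895255-48909188) was scarce in controls and higher in KO cells of Mx1Cre mice. It had 6.63, 4.67, 7.46 and 6.43 CPM in LSK Mx1Cre KO libraries, against 0.653, 0.469, 0.402 and 1.44 CPM in controls. In progenitor Mx1Cre cells it had 6.74, 6.14, 7.57 and 4.94 CPM in KO libraries, against 0.372, 0.0861, 0.374 and 0.751 CPM in controls. KO libraries of both populations covered much the same range. In LSK CreER cells Aoc1 had 1.18, 0.684, 0.738 and 0.748 CPM in KO libraries, against 1.35, 0.769, 0.374 and 0 CPM in controls, with counts of 9 to 16 against 0 to 12, and the libraries overlapped. The progenitor CreER libraries had 0.806, 1.82, 0.815 and 1.63 CPM with the knockout, against 0.524, 0.224, 0.260 and 0.324 CPM in controls, and stood apart at counts of 10 to 21 against 2 to 7. Log2 fold changes were 3.03 ± 0.52 in Mx1Cre and 0.51 ± 0.61 in CreER LSK cells, and 3.96 ± 0.45 in Mx1Cre and 1.84 ± 0.47 in CreER progenitor cells. Over both Cre lines Aoc1 held rank 3 in progenitor cells, at 2.90 ± 0.33. With counts this low, a fitted fold change depends on the value added to avoid zero.

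Col4a1 lies at chr8:11198423-11312889. It had 47.0, 63.2, 63.0 and 55.5 CPM in LSK Mx1Cre KO libraries, against 14.4, 16.8, 17.3 and 21.0 CPM in controls. LSK CreER cells had 37.0, 15.3, 28.4 and 20.3 CPM with the knockout, against 31.1, 38.8, 18 and 24.6 CPM in controls. The Mx1Cre libraries stood apart, while the CreER libraries covered the same range. In progenitor Mx1Cre cells Col4a1 had 10.4, 14.2, 14.1 and 6.89 CPM in KO libraries, against 0.298, 0.861, 0.998 and 1.22 CPM in controls. The progenitor CreER libraries had 0.953, 1.82, 1.55 and 1.86 CPM with the knockout, against 1.80, 1.45, 0.867 and 0.973 CPM in controls, and overlapped. Log2 fold changes were 1.71 ± 0.24 in Mx1Cre and -0.15 ± 0.24 in CreER LSK cells, and 3.76 ± 0.39 in Mx1Cre and 0.26 ± 0.38 in CreER progenitor cells. The Mx1Cre effect minus the CreER effect was 1.85 ± 0.33 in LSK and 3.50 ± 0.54 in progenitor cells, the widest gap between Cre lines of the 8 genes in progenitor cells. For Aoc1 it was 2.52 ± 0.81 in LSK and 2.12 ± 0.68 in progenitor cells. Endothelial cells are a major source of collagen IV. The 7 endothelial markers summed to between 27.3 and 40.5 CPM in progenitor Mx1Cre KO and between 8.07 and 12.4 CPM in progenitor Mx1Cre control libraries, mostly Flt1 and Plvap. They summed to between 13.4 and 17.1 CPM in LSK Mx1Cre KO and between 9.60 and 12 CPM in LSK Mx1Cre control libraries, to between 11.1 and 17.2 CPM in LSK CreER KO and between 14.5 and 17.8 CPM in LSK CreER control libraries, and to between 21.4 and 29.0 CPM in progenitor CreER KO and between 18.5 and 21.1 CPM in progenitor CreER control libraries. Of 4 endothelial markers tested in LSK cells 1 rose, Flt1, and 2 fell, Emcn and Kdr, beside 13.5% and 14.3% of all genes. Of 3 tested in progenitor cells 1 rose with edgeR, Flt1 (by 1.48 ± 0.23, adjusted p = 0.000751), and 2 rose with DESeq2 and with limma-voom. With edgeR 2.28% of all genes rose in progenitor cells. Cdh5, the defining cadherin of endothelium, averaged at most 0.357 CPM in any group, and Cldn5 at most 0.0862 CPM. The 9 stromal markers summed to between 4.50 and 11.9 CPM in progenitor Mx1Cre KO and between 3.35 and 14.2 CPM in progenitor Mx1Cre control libraries, with Col3a1, Pdgfra, Dcn and Lum at 0 in both groups. They summed to between 7.39 and 15.6 CPM in LSK Mx1Cre KO and between 37.8 and 58.4 CPM in LSK Mx1Cre control libraries, to between 20.3 and 30.7 CPM in LSK CreER KO and between 29.6 and 47.2 CPM in LSK CreER control libraries, and to between 9.29 and 59 CPM in progenitor CreER KO and between 23.3 and 46.9 CPM in progenitor CreER control libraries. These stromal sums were mostly Pdgfrb and Col1a2. In LSK Mx1Cre cells Pdgfrb averaged 11.9 CPM in KO and 48.7 CPM in control libraries, and Col1a2 0.235 and 1.66 CPM. The stromal marker Pdgfrb fell in LSK (by 1.5 ± 0.15, adjusted p = 1.53e-06) and in progenitor cells (by 1.24 ± 0.32, adjusted p = 0.0248), the only stromal marker called with edgeR, of 2 tested in LSK and 3 in progenitor cells. With DESeq2 2 of 2 stromal markers fell in LSK and 1 of 3 in progenitor cells, and with limma-voom 1 and 0 fell. Of all genes, 14.3% fell in LSK and 5.51% in progenitor cells with edgeR. The part of endothelial and stromal cells in the Col4a1 values was not tested.

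Adgb (chr10:10335703-10475093) was the scarcest of the 8 genes per kb of exon in LSK controls. It had 8.24, 4.83, 5.21 and 3.70 CPM in LSK Mx1Cre KO libraries, against 0.653, 1.17, 0.723 and 1.24 CPM in controls. In LSK CreER cells it had 1.18, 2.28, 2.62 and 3.44 CPM in KO libraries, against 0.113, 0.384, 0.561 and 1.15 CPM in controls. The LSK CreER libraries stood apart by a narrow margin, 1.18 CPM in the lowest KO library and 1.15 CPM in the highest control. Adgb in progenitor Mx1Cre cells had 6.74, 6.85, 7.35 and 5.24 CPM in KO libraries, against 0.596, 2.76, 1.87 and 1.03 CPM in controls. Progenitor CreER cells had 2.20, 3.45, 5.95 and 3.18 CPM with the knockout, against 0.599, 1.01, 1.47 and 0.729 CPM in controls. The 4 pairs gave similar log2 fold changes, 2.50 ± 0.43 in Mx1Cre and 2.02 ± 0.47 in CreER LSK cells, and 2.06 ± 0.42 in Mx1Cre and 1.94 ± 0.44 in CreER progenitor cells.

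**Figure D2:**
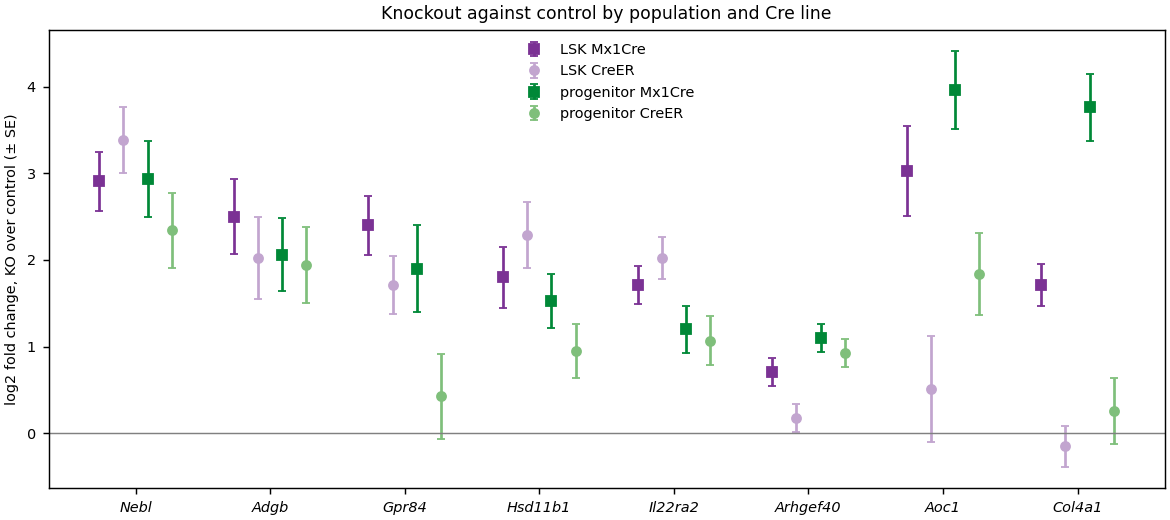
Log2 fold change of KO over control with its SE for each gene, by population (purple LSK, green progenitor) and Cre line (squares Mx1Cre, circles CreER). Nebl and Adgb have similar values in all 4 pairs, while Aoc1 and Col4a1 are highest in Mx1Cre cells and Col4a1 in CreER cells lies within 1 SE of 0.

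Levels of different genes were compared per kb of exon (RPKM). In progenitor Mx1Cre KO cells the mean level was 76.1 RPKM for Hsd11b1, 6.72 for Il22ra2, 6.66 for Gpr84, 6.62 for Arhgef40, 6.55 for Nebl, 2.21 for Aoc1, 1.72 for Col4a1 and 1.25 for Adgb. Hsd11b1 was thus far above the next gene, and Il22ra2, Gpr84, Arhgef40 and Nebl did not differ beyond their SD of 1.17, 3.40, 1.52 and 3.02 RPKM. In LSK Mx1Cre KO cells the order was Hsd11b1 at 32.7, Arhgef40 at 9.39, Col4a1 at 8.64, Il22ra2 at 5.42, Nebl at 4.59, Aoc1 at 2.19, Gpr84 at 1.93 and Adgb at 1.05 RPKM. Across the 8 groups, the highest mean was in progenitor Mx1Cre KO cells for Nebl, Adgb, Gpr84, Hsd11b1, Il22ra2 and Aoc1 and in LSK Mx1Cre KO cells for Arhgef40 and Col4a1. Most neighbours in the order of group means overlapped in their libraries. The highest group stood apart from the next in Hsd11b1 (110 ± 26.4 CPM in progenitor Mx1Cre KO and 48.1 ± 25.4 CPM in progenitor CreER KO cells, SD, n = 4 each) and in Col4a1 (57.2 ± 7.67 CPM in LSK Mx1Cre KO and 28.1 ± 8.93 CPM in LSK CreER control cells).

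The genes were not chosen on differences among control libraries, and these were tested with edgeR's quasi-likelihood test and Benjamini-Hochberg adjustment over all genes. LSK and progenitor controls were compared in the fit of all 32 libraries, over 14459 genes, and the Cre lines in the fit of each population. The fit of all 32 had no term for mouse. It took the 2 libraries of a mouse as independent, so its p-values leave out that pairing. These are the same control libraries that the knockouts were set against. The filter on low counts took in the KO libraries of each fit. Aoc1, at 0 to 22 counts in a control library, may have passed it only through KO libraries. In the fit of LSK cells the same may hold for Adgb and Gpr84, at 1 to 19 and 5 to 12 counts in LSK controls. They are counted among the 8 below, but nothing is read from these results. In LSK against progenitor controls, 6 of the 8 genes passed an adjusted p of 0.05, as 34.6% of all genes did. Col4a1 was higher in LSK controls, by 4.43 ± 0.24 on the log2 scale (adjusted p = 5.05e-14), and so was Arhgef40, by 1.09 ± 0.12 (adjusted p = 5.51e-08). Gpr84 was lower in LSK than in progenitor controls (log2 fold change -2.04 ± 0.33, adjusted p = 2.33e-05), as were Hsd11b1 (-1.90 ± 0.26, adjusted p = 2.40e-06), Il22ra2 (-0.82 ± 0.19, adjusted p = 0.00107) and Nebl (-1.11 ± 0.32, adjusted p = 0.00875). The Nebl call was lost with limma-voom (adjusted p = 0.0852) and without progenitor Mx1Cre control library 2 (-0.75, adjusted p = 0.0512). Adgb (-0.68 ± 0.35, adjusted p = 0.131) and Aoc1 (0.85 ± 0.43, adjusted p = 0.130) did not pass, and both passed without LSK CreER control library 4 (adjusted p = 0.0354 and 0.0230). The difference between populations was not called as different between the Cre lines for any of the 8 genes, against 1.11% of all genes. With edgeR 0 of 8 passed and 0 had an unadjusted p below 0.05, with DESeq2 0 passed and 1 had one, and with limma-voom 0 passed and 0 had one. With mouse as a block in edgeR 0 passed and 2 had one.

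Between the control sets of LSK cells, Hsd11b1 was higher in Mx1Cre than in CreER controls (1.48 ± 0.38, adjusted p = 0.010), as was Il22ra2 (1.02 ± 0.25, adjusted p = 0.00720), while Arhgef40 was lower (-0.51 ± 0.16, adjusted p = 0.0318). These are 3 of 8 genes, against 21.7% of all genes tested in LSK cells. Hsd11b1 lost the call with limma-voom (adjusted p = 0.0704), and Arhgef40 with limma-voom (0.0525), with replicate number as a block (0.0527), and without CreER control library 1 (0.102) or 2 (0.0835) or Mx1Cre control library 1 (0.0829), 2 (0.0695) or 3 (0.0843). Nebl (1.15 ± 0.42, adjusted p = 0.0575) and Col4a1 (-0.66 ± 0.24, adjusted p = 0.0568) lay just beyond the threshold. Nebl passed with DESeq2 (0.0263), sex as a covariate (0.0181), the replicate block (0.0280), the length trend removed (0.0480) and without Mx1Cre control library 4 (0.0259). Col4a1 passed with DESeq2 (0.0238), the length trend removed (0.0410), without CreER KO libraries 2 and 3 (0.0395), with the control groups alone (0.0316) and without CreER control library 3 (0.0193). Of the progenitor controls, Il22ra2 alone of the 8 was called, higher in Mx1Cre than in CreER controls (0.95 ± 0.28, adjusted p = 0.0201), against 25.3% of all genes. That call was lost without CreER control library 1 (0.0609), 2 (0.0589) or 4 (0.0573).

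**Figure D3:**
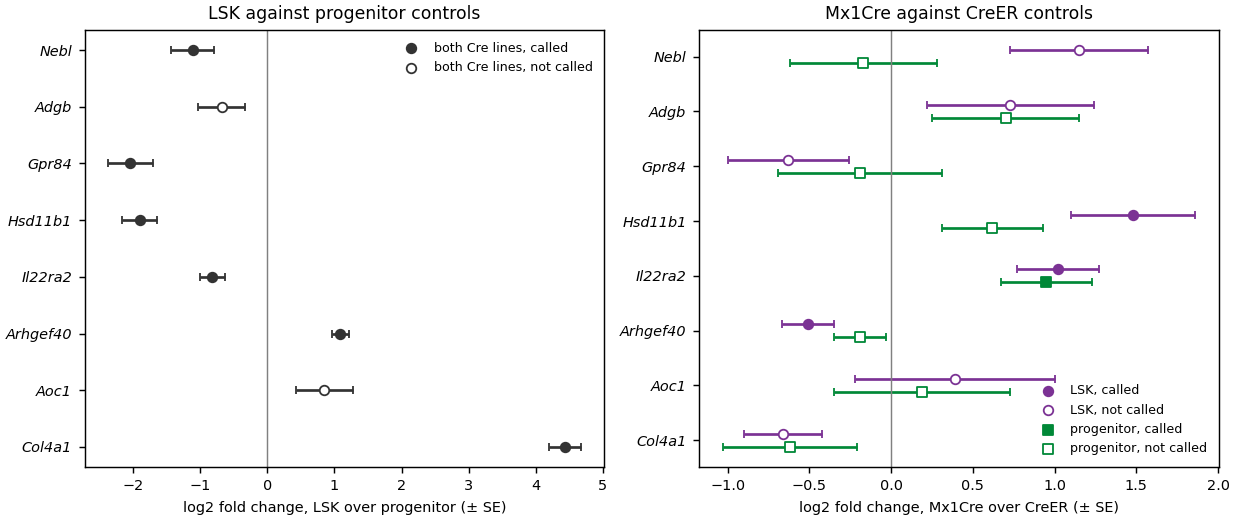
Log2 fold change with its SE among control libraries for each gene, with LSK over progenitor on the left and Mx1Cre over CreER, by population, on the right. Filled symbols passed an adjusted p of 0.05 and open symbols did not, and Col4a1 stands out at 4.43 on the left.

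Neighbouring genes were looked at because they were not picked for how they moved. They are the nearest gene of the count table on each side of each of the 8 genes, within 500 kb, and 11 of the 16 had enough counts to test. In LSK cells 4 of the 11 were called in KO against control, all higher, beside 27.8% of all genes, 13.5% higher and 14.3% lower. G0s2, which encodes an inhibitor of triglyceride lipase and lies 8.12 kb from Hsd11b1, rose by 1.47 ± 0.26 (adjusted p = 0.000434). It had 7.77, 4.34, 6.14 and 5.02 CPM in LSK Mx1Cre KO libraries, against 3.41, 4.53, 3.05 and 2.74 CPM in controls. LSK CreER cells had 1.84, 5.53, 2.46 and 2.77 CPM with the knockout, against 0.676, 0.288, 0.841 and 0.917 CPM in controls. The CreER libraries stood apart, and the Mx1Cre libraries overlapped at KO library 2 and control library 2. Gm7932, an annotated protein-coding gene 29.2 kb from Aoc1, rose by 1.51 ± 0.34 (adjusted p = 0.00358). It had 3.32, 3.97, 4.12 and 7.31 CPM in LSK Mx1Cre KO libraries, against 1.02, 1.64, 1.53 and 1.5 CPM in controls, and these stood apart. The LSK CreER libraries overlapped, at 2.43, 2.39, 2.30 and 1.27 CPM with the knockout, against 1.58, 0, 0.748 and 1.07 CPM in controls. Copz1, a subunit of the COPI vesicle coat 8.37 kb from Gpr84, rose by 0.29 ± 0.08 (adjusted p = 0.0167). Rab32, a small GTPase 69.9 kb from Adgb, rose by 0.30 ± 0.09 (adjusted p = 0.0220). The Rab32 call was lost without CreER KO libraries 2 and 3 together (0.0770), and without CreER KO library 2 (0.0599), Mx1Cre KO library 1 (0.0505) or CreER control library 2 (0.0506) or 4 (0.0548).

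In progenitor cells 1 of 11 neighbours was called, Gm7932, higher by 1.80 ± 0.48 (adjusted p = 0.0283), beside 7.79% of all genes, 2.28% higher and 5.51% lower. It had 1.78, 2.14, 2.67 and 4.20 CPM in Mx1Cre KO libraries, against 0.0745, 0.0861, 0.874 and 0.469 CPM in controls. The progenitor CreER libraries had 1.39, 1.63, 0.897 and 0.775 CPM with the knockout, against 1.72, 0.559, 0.260 and 0.243 CPM in controls. The Mx1Cre libraries stood apart and the CreER libraries overlapped at control library 1. The call was lost with the replicate block (0.0557), and without CreER KO library 1 (0.0504) or 2 (0.0635), CreER control library 2 (0.0555), 3 (0.0627) or 4 (0.0553), or Mx1Cre control library 2 (0.0577). G0s2 did not pass in progenitor cells (0.63 ± 0.31, adjusted p = 0.276). The nearest tested neighbours of Il22ra2, Arhgef40 and Col4a1 were Ifngr1, Tmem253, 9530052E02Rik and Rab20, and none of these 4 passed in either population. Overlapping genes were not counted as neighbours. Gm16617, which overlaps Arhgef40, rose in progenitor cells (1.59 ± 0.45, adjusted p = 0.0412), a call lost under 14 of 24 alternatives. It was not called in LSK cells (0.26 ± 0.24, adjusted p = 0.450). Zfp219, which also overlaps Arhgef40, fell in LSK cells (-0.20 ± 0.07, adjusted p = 0.0411), lost under 13 of 25. It was not called in progenitor cells (-0.11 ± 0.08, adjusted p = 0.510). Ifngr1 (0.28 ± 0.11 in LSK cells, adjusted p = 0.0625) passed there with DESeq2 (0.0416) and without Mx1Cre control library 1 (0.0496), CreER KO library 1 (0.0188) or 3 (0.0410) or Mx1Cre KO library 2 (0.0311).

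**Figure D4:**
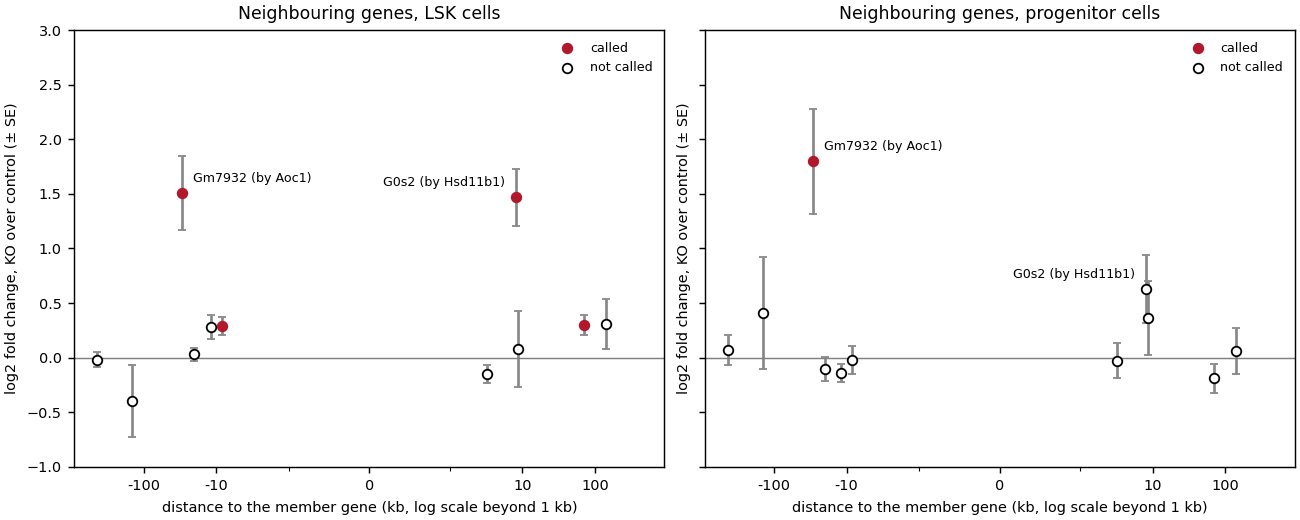
Log2 fold change of KO over control with its SE for the neighbours of the 8 genes, against their distance in kb from the gene they flank (negative at lower coordinates), in LSK cells on the left and progenitor cells on the right. Filled points passed an adjusted p of 0.05, with Gm7932 at 1.51 in LSK and 1.80 in progenitor cells and G0s2 at 1.47 in LSK cells.

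Col4a2, the collagen IV chain that assembles with the product of Col4a1, is transcribed away from Col4a1 from the same stretch of chromosome 8. In LSK Mx1Cre cells Col4a2 had 39.8, 35.4, 36.2 and 29.9 CPM in KO libraries, against 14.7, 16.5, 19.7 and 23.5 CPM in controls. LSK CreER cells had 23.7, 11.8, 17.0 and 14.5 CPM with the knockout, against 27.2, 26.5, 18.4 and 19.3 CPM in controls. The Mx1Cre libraries stood apart with KO higher, and the CreER libraries overlapped. Progenitor Mx1Cre cells had 13.8, 11.6, 8.24 and 4.50 CPM with the knockout, against 1.56, 2.07, 3.00 and 2.35 CPM in controls, again apart. Progenitor CreER cells had 0.660, 0.288, 1.55 and 1.24 CPM with the knockout, against 2.25, 0.783, 2.25 and 1.95 CPM in controls. Over both Cre lines Col4a2 was not called (0.24 ± 0.14, adjusted p = 0.209 in LSK cells and 0.56 ± 0.32, adjusted p = 0.358 in progenitor cells). The difference between its Cre lines was called in LSK cells, 0.91 ± 0.19 in Mx1Cre and -0.44 ± 0.20 in CreER cells (difference 1.35 ± 0.28, adjusted p = 0.00847), as it was for 4.37% of all genes, and was just lost without CreER KO libraries 2 and 3 (adjusted p = 0.0502).

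Genes known to work with each of the 8 were examined as 8 lists, 119 of whose genes could be tested in LSK and 118 in progenitor cells. In LSK cells 18 of the 119 rose and 21 fell (32.8% called, beside 27.8% of all genes), and in progenitor cells 7 of 118 rose and 10 fell (14.4%, beside 7.79%). The median log2 fold change over all lists was 0.01 in LSK cells and -0.04 in progenitor cells, beside 0.01 and -0.01 over all genes. Without progenitor Mx1Cre control library 1, 26 of the list genes were called in progenitor cells and 1794 of all genes, against 17 and 1067 with it. Unless stated otherwise, the called genes named are those among the 4 lowest adjusted p of each list in either population. They also kept their call at 0.05 under every alternative tried, a condition added after their values were seen. The genes named as not passing were also chosen after their values were seen.

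Around Col4a1, of 14 genes of basement membranes and collagen IV assembly tested in LSK cells 6 fell and 1 rose, and of 14 in progenitor cells 4 fell, with medians of -0.19 and -0.26. Plod2, a lysyl hydroxylase that modifies collagen, fell by 1.67 ± 0.21 on the log2 scale in LSK cells (adjusted p = 1.54e-05) and by 1.97 ± 0.33 in progenitor cells (adjusted p = 0.00133). It had 1.04, 1.02, 1.32 and 1.59 CPM in LSK Mx1Cre KO libraries, against 4.43, 3.83, 4.98 and 5.49 CPM in controls, and 5.29, 2.17, 4.59 and 1.79 CPM in LSK CreER KO libraries, against 8.79, 10.1, 8.32 and 9.63 CPM in controls. In both Cre lines every KO library was below every control. Lamb2, a laminin chain, fell by 1.34 ± 0.25 in LSK cells (adjusted p = 0.000745) and by 1.59 ± 0.39 in progenitor cells (adjusted p = 0.0186). In progenitor cells it averaged 0.161 CPM in Mx1Cre KO and 1.63 CPM in Mx1Cre control libraries, and 0.493 CPM in CreER KO and 0.513 CPM in CreER control libraries. Serpinh1, the collagen chaperone HSP47, fell by 2.65 ± 0.54 in LSK cells (adjusted p = 0.00157), at 0, 0.215, 0 and 0 CPM in LSK Mx1Cre KO libraries, against 0.725, 1.02, 1.12 and 1.24 CPM in controls. Its LSK CreER libraries overlapped, at 0.735, 0.228, 0 and 0.673 CPM with the knockout, against 1.58, 1.83, 1.12 and 0.611 CPM in controls. Agrn, the heparan sulfate proteoglycan agrin, fell by 0.69 ± 0.09 in LSK cells (adjusted p = 3.17e-05). These 4 genes thus fell in LSK cells, where Col4a1 was higher in the Mx1Cre line. The 1 gene of the list that rose in LSK cells was Plod3 (0.47 ± 0.12, adjusted p = 0.00567). It averaged 306 CPM in LSK Mx1Cre KO and 217 CPM in control cells, and 172 and 125 CPM in LSK CreER cells. In progenitor cells it was not called (-0.22 ± 0.12, adjusted p = 0.364). Plod3 was named after its values were seen, and its alternatives are not given.

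**Figure D5:**
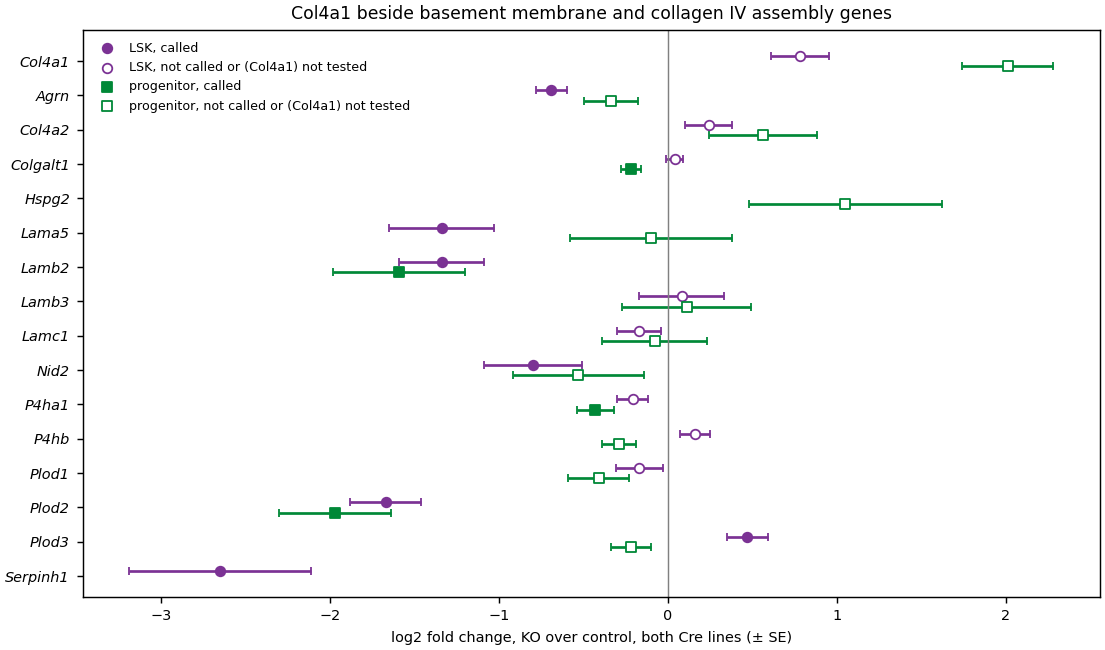
Log2 fold change of KO over control, mean of both Cre lines, with its SE, for Col4a1 and the tested genes of the basement membrane list, in LSK (purple circles) and progenitor cells (green squares). Filled symbols passed an adjusted p of 0.05. In LSK cells Serpinh1, Plod2, Lamb2, Lama5, Nid2 and Agrn passed below 0 and Plod3 passed above 0.

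In the list of histamine and polyamine metabolism around Aoc1, 3 of 15 rose and 2 fell in LSK cells, and 1 of 15 rose in progenitor cells. Azin1, which protects ornithine decarboxylase and so promotes polyamine synthesis, rose by 0.46 ± 0.05 in LSK (adjusted p = 8.97e-06) and by 0.34 ± 0.07 in progenitor cells (adjusted p = 0.00368). Sat1, the acetyltransferase that starts polyamine breakdown, rose by 0.58 ± 0.13 in LSK cells (adjusted p = 0.00355). Smox, spermine oxidase, fell by 0.65 ± 0.09 (adjusted p = 5.53e-05), and Slc18a2, the vesicular transporter of histamine and other amines, fell by 1.32 ± 0.16 (adjusted p = 8.27e-06), both in LSK cells. The Slc18a2 log2 fold change was -2.11 in Mx1Cre and -0.53 in CreER LSK cells. Of 7 mast cell and basophil markers tested in LSK cells 5 fell with edgeR, 5 fell and 1 rose with DESeq2, and 3 fell with limma-voom, beside a fall in 14.3% of all genes with edgeR. The 8 markers of that list summed to between 102 and 185 CPM in LSK Mx1Cre KO and between 411 and 666 CPM in LSK Mx1Cre control libraries, and to between 386 and 607 CPM in LSK CreER KO and between 209 and 1186 CPM in LSK CreER control libraries. Their part in the Slc18a2 values was not tested.

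In the list of glucocorticoid activation and response around Hsd11b1, 4 of 18 rose and 3 fell in LSK cells, and 1 of 17 rose in progenitor cells. The median log2 fold change of this list was -0.05 in LSK and 0.01 in progenitor cells, beside 0.01 and -0.01 over all genes. Sgk1, a kinase, rose by 0.85 ± 0.15 in LSK (adjusted p = 0.000594) and by 1.05 ± 0.17 in progenitor cells (adjusted p = 0.000922). Cebpd, a transcription factor, rose by 0.59 ± 0.12 in LSK cells (adjusted p = 0.00132), and Errfi1, a feedback inhibitor of EGF receptor signalling, fell by 1.68 ± 0.34 (adjusted p = 0.00164). Errfi1 was scarce, at a mean of 0.153 CPM in LSK Mx1Cre KO and 0.827 CPM in control cells, and 0.590 and 1.19 CPM in LSK CreER cells. Fkbp4, a co-chaperone of the glucocorticoid receptor, rose by 0.31 ± 0.09 in LSK cells (adjusted p = 0.0182). The other called genes of this list in LSK cells were Fkbp5, another co-chaperone of the receptor, which rose by 0.19 ± 0.07 (adjusted p = 0.0438), Dusp1, a MAP kinase phosphatase, which fell by 1.21 ± 0.39 (adjusted p = 0.0262), and Per1, a circadian clock gene, which fell by 0.32 ± 0.11 (adjusted p = 0.0440). These 3 were named after their values were seen and were not recomputed one by one under the alternatives.

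Around Gpr84, 3 of 15 genes of fatty acid receptors and Gi signalling rose in LSK cells, and 1 of 15 rose and 1 fell in progenitor cells. Ffar2, a receptor for short-chain fatty acids, rose by 0.58 ± 0.10 in LSK (adjusted p = 0.000270) and by 0.79 ± 0.17 in progenitor cells (adjusted p = 0.00904), while Gng2, a G protein gamma subunit, fell by 0.55 ± 0.12 in progenitor cells (adjusted p = 0.00670). Around Il22ra2, 3 of 12 genes of interleukin-22 and interleukin-10 family signalling fell in LSK and 2 of 12 in progenitor cells. Il10rb, the shared chain of the interleukin-22 and interleukin-10 receptors, fell by 0.34 ± 0.07 in LSK (adjusted p = 0.00122) and by 0.40 ± 0.08 in progenitor cells (adjusted p = 0.00634). Socs1, a feedback inhibitor of cytokine signalling, fell by 0.81 ± 0.19 in LSK cells (adjusted p = 0.00423). Il22 itself and Il22ra1 did not have enough counts to test.

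In the list around Arhgef40, Krt8, a keratin, rose by 2.59 ± 0.42 in LSK (adjusted p = 0.000221) and by 2.02 ± 0.49 in progenitor cells (adjusted p = 0.0161). It had 4.93, 2.90, 6.30 and 5.64 CPM in LSK Mx1Cre KO libraries, against 0.580, 0.391, 0 and 0.327 CPM in controls. LSK CreER cells had 0.882, 0.855, 0.656 and 1.5 CPM with the knockout, against 0, 0.288, 0.561 and 0.611 CPM in controls. Its levels were low throughout. KO libraries were above controls in both Cre lines of LSK cells and in progenitor Mx1Cre cells. The progenitor CreER libraries overlapped, at 0.733, 0.480, 1.47 and 0.232 CPM with the knockout, against 0.15, 0, 0.693 and 0.324 CPM in controls. Its partner keratin Krt18 did not pass (0.08 ± 0.11, adjusted p = 0.635). Of the exchange factors, Arhgef6 rose by 0.39 ± 0.06 (adjusted p = 0.000200), and Arhgef18 fell by 0.52 ± 0.09 (adjusted p = 0.000521) and Kalrn by 0.62 ± 0.14 (adjusted p = 0.00383), all in LSK cells.

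Around Nebl, 1 of 15 genes of the nebulin family and thin filament rose and 1 fell in LSK cells, and 2 of 15 fell in progenitor cells. Tpm1, a tropomyosin, fell by 0.54 ± 0.07 in LSK cells (adjusted p = 3.31e-05), and Tpm4 by 0.94 ± 0.17 in progenitor cells (adjusted p = 0.00231). Neb itself, the founder of the family, did not pass in LSK cells (-0.05 ± 0.34, adjusted p = 0.932) or progenitor cells (0.26 ± 0.44, adjusted p = 0.830). Around Adgb, 4 of 11 globin and calpain genes rose and 2 fell in LSK cells, and 2 of 12 rose in progenitor cells. Hbb-b1, an adult beta globin, rose by 1.17 ± 0.26 in LSK cells (adjusted p = 0.00294) and Hbb-bs by 2.13 ± 0.49 (adjusted p = 0.00387). The Hbb-b1 value averages log2 fold changes of 2.41 in Mx1Cre and -0.07 in CreER cells, which differed (difference 2.48 ± 0.52, adjusted p = 0.0105). Reads of these near-identical globin genes can be split by the counting, so each of the 2 values is uncertain. Hbb-bs averaged 2.77 CPM in LSK Mx1Cre KO and 0.259 CPM in control cells, and 0.662 and 0.339 CPM in LSK CreER cells. Of 6 erythroid markers tested in LSK cells 2 rose, Hbb-bs among them, beside 13.5% of all genes. Klf1 (-1.18 ± 0.24, adjusted p = 0.00155) and Epor (-1.22 ± 0.23, adjusted p = 0.000736) fell, beside 14.3% of all genes. The part of erythroid cells in the globin values was not tested. Capn15, a calpain, fell by 0.49 ± 0.14 in LSK cells (adjusted p = 0.0163).

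The genes most like each of the 8 were the 3 with the highest Pearson r of log2 CPM over the 32 libraries among 12683 genes. These r values hold the difference between KO and control on which the 8 were chosen, so each is followed by r within groups, after each group's mean was taken out. The r over the 32 libraries also holds the spread within groups, so picking on it favours a high r within groups. Nothing is read from either value for the genes picked this way. Nebl was most like Azin1 (0.92, within groups 0.72), Jag1 (0.89 and 0.57) and Adgb (0.87 and 0.29). Adgb was most like Gas7 (0.90 and 0.74), Azin1 (0.89 and 0.41) and Odf2 (0.88 and 0.77). Hsd11b1 was most like Ncam1 (0.95 and 0.70), Tmem53 (0.93 and 0.78) and Flt1 (0.93 and 0.61). Azin1 thus stood beside both Nebl and Adgb, and Gas7 beside both Adgb and Il22ra2. Il22ra2 was most like Plau (0.92 and 0.57), Gas7 (0.91 and 0.37) and Mrc1 (0.90 and 0.49), and Gpr84 most like Hacd2 (0.88 and 0.54), Smn1 (0.85 and 0.36) and Rrm2 (0.84 and 0.39). Arhgef40 was most like Dusp4 (0.90 and 0.32), Ltbp4 (0.88 and 0.28) and Trp53i11 (0.88 and 0.59), and Aoc1 most like Bhlhe40 (0.86 and 0.47), Vat1 (0.85 and 0.22) and Lpcat2 (0.81 and 0.38). Col4a1 was most like Il1r1 (0.97 and 0.75), Cd244a (0.96 and 0.42) and Trp53i11 (0.95 and 0.64). Among the 8 genes themselves, r over the 32 libraries had a median of 0.59 over 28 pairs (-0.27 to 0.87), and r within groups a median of 0.10 (-0.71 to 0.59).

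Each mouse gave both populations, so the deviation of a library from its group mean was compared between the LSK and progenitor cells of the 16 mice, for 8 relations. The permutations shuffled mice across groups although group means had been taken out, so their p-values are approximate and may be too small. None of the 8 passed adjustment (adjusted permutation p from 0.193 to 0.453 for r), and r ran from -0.25 for Arhgef40 to 0.56 for Nebl. For Nebl the permutation p was 0.0241 (adjusted p = 0.193; Spearman's rank correlation 0.57, permutation p = 0.0236, adjusted p = 0.179). Its r was 0.54 without the 2 mice farthest from the median, 0.54 without the mice of LSK CreER KO libraries 2 and 3, and 0.53 with those 2 LSK libraries exchanged. The values of other genes moved more. Hsd11b1 had r = 0.43 (adjusted permutation p = 0.313), which was 0.07 without the 2 farthest mice, 0.57 without the mice of libraries 2 and 3 and 0.66 with them exchanged. Without the 2 farthest mice r was 0.56 for Gpr84 and 0.59 for Col4a1, against 0.20 for each over all mice, and with the exchange r was 0.01 for Arhgef40. Over all genes, the 2 libraries of a mouse deviated together least in the mice of CreER KO libraries 2 (-0.06) and 3 (-0.04), and r ran from 0.10 to 0.44 in the other mice.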

How the data were processed

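Libraries were built from 50 ng of RNA of sorted cells with a TruSeq kit and read from both ends at 80 bp, per the labels' protocols. Whole-number counts per gene were deposited, made with featureCounts on mm10 per the submitters' processing notes. The aligner, the annotation and whether strand was used: not given in the sources used here. Genes without a symbol carried 3.92% of counts.

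Groups came from the sample titles. edgeR 4.0.16 (R 4.3.3) was used with TMM scaling, filterByExpr and its quasi-likelihood test, in separate fits of LSK and progenitor libraries and a fit of all 32 for LSK against progenitor controls. P-values were Benjamini-Hochberg adjusted over all genes, with a threshold of 0.05, and ± beside a log2 fold change is its SE. The KO effect was averaged over both Cre lines unless stated. RPKM is CPM per kb of annotated exon. Positions and promoters are RefSeq GRCm38.p6, which is the mm10 build. The 8 genes, the lists around them and the marker lists were chosen with earlier results of these data known. Genes named by rule were the 8 genes, Kat7, the neighbours, up to 4 genes per list with the lowest adjusted p in either population, the 3 genes most alike and the cell type markers. The counts of the list around Arhgef40 alone are not reported here. The fits were tested on simulated data.

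Alternatives were DESeq2 1.42.0 size factors and test, limma 3.58.1 voom, no filter, a filter of 1 CPM in 4 libraries, sex, replicate number or mouse as a term, removal of a gene length trend, a threshold of 0.01, the compared groups alone, and leaving out libraries. Replicate numbers were not taken as pairs of KO and control mice in the main fits. Deviations from group means in KO and control libraries of the same number had correlations from -0.28 to 0.43, 8 of 16 above 0.1. Whether the numbers mark pairs is not settled by this. The labels give 1 mouse for each LSK and progenitor pair, and the 2 libraries of 13 of 16 mice deviated together at r above 0.1.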

Additional observations from a re-analysis of the deposited data

Results flagged for a closer look

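In 64 groups of 4 libraries, 1 for each gene and group, 4 held a library far from the other 3, a rate near the 1 in 20 that chance gives. Nebl had 5.42 CPM in progenitor Mx1Cre control library 2, the highest of its group. Il22ra2 had 4.94 CPM in progenitor CreER control library 3. Arhgef40 had 50.2 CPM in progenitor Mx1Cre KO library 1. Aoc1 had 1.18 CPM in LSK CreER KO library 1.

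For 7 of the 131 neighbours, overlapping and list genes tested in LSK cells, edgeR's test of the difference, Mx1Cre effect minus CreER effect, passed (5.34%, beside 4.37% of all genes). For Col4a2 the difference was 1.35 ± 0.28 (adjusted p = 0.00847). For Hbb-b1 it was 2.48 ± 0.52 (adjusted p = 0.0105), with log2 fold changes of 2.41 in Mx1Cre and -0.07 in CreER cells. For Slc18a2 it was -1.58 ± 0.31 (adjusted p = 0.00655), with -2.11 in Mx1Cre and -0.53 in CreER cells. These last 2 calls held under all alternatives tried. For Trio it was -1.16 ± 0.27 (adjusted p = 0.0199), lost under 3 alternatives, among them leaving out LSK CreER KO libraries 2 and 3 (adjusted p = 0.134). For Agrn it was -0.76 ± 0.18 (adjusted p = 0.0238), lost under 7. For Lama5 it was -2.34 ± 0.61 (adjusted p = 0.0380) and for Smox -0.68 ± 0.18 (adjusted p = 0.0419), each lost under 16.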

How the results depend on the processing

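No called result changed direction, and sign changes were limited to values that were not called. The log2 fold changes of the 8 genes in KO against control, averaged over both Cre lines, kept their sign in all 392 recomputed values. The genes were chosen on this contrast, so nothing is read from this. Of the recomputed control comparisons of these genes, 665 kept their side of the threshold, 13 lost the call and 12 gained it. At a threshold of 0.01, 2 neighbours and 24 list genes were called in LSK cells and 0 neighbours and 7 list genes in progenitor cells, against 4, 39, 1 and 17 at 0.05. With replicate number as a block, 0 neighbours were called in progenitor cells, and 3783 genes in LSK and 933 in progenitor cells, against 3927 and 1067 without it. The Mx1Cre and CreER progenitor controls differed in 2297 genes when fitted alone, against 3458. The population difference by Cre line was called in 395 genes with DESeq2 and 571 with mouse as a replicate block, against 160. The causes were not tested.

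Leaving out 1 library at a time gave 3113 to 4897 genes called in LSK KO cells and 775 to 1794 in progenitor KO cells, the highest without progenitor Mx1Cre control library 1. Neighbours called ran from 3 to 6 in LSK and from 0 to 1 in progenitor cells, and list genes from 33 to 46 and from 9 to 26, with 9 without progenitor CreER KO library 4. Among controls the counts ran from 2107 to 2990 in LSK cells, from 2316 to 3753 in progenitor cells, from 4443 to 5309 between the populations and from 64 to 320 for their difference by Cre line. With raw counts of 0 to 12 in LSK CreER controls, the depth sets the precision of Aoc1.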
